A study of Mus musculus with 6 samples.

Results

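The 10 genes described here encode the main amino acid and peptide carriers of the enterocyte, the absorptive cell of the intestinal epithelium. They were taken by name (Slc1a1, Slc6a19, Slc6a20a, Slc7a7, Slc7a8, Slc7a9, Slc3a1, Slc3a2, Slc15a1 and Slc36a1) from the 22180 genes with a transcript cluster of exactly 1 gene symbol. Each of the 10 had 1 such cluster on the array. Their expression was compared in total RNA of whole jejunum from adult C57BL/6 mice, all of which had received HFD, a diet rich in fat, over 12 weeks. The 3 mutants were homozygous for the Hnf4a loxP allele and carried Cre recombinase under a villin promoter, which deletes in the intestinal epithelium and spares other cell types. The 3 controls came from the same crosses, and the sources used here do not state their exact alleles. Each mouse gave 1 array, and sex, litter and scan batch are not stated per array either. In a whole-tissue extract, fewer cells of a type and less RNA per cell cannot be told apart.

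Dietary protein reaches the enterocyte as small peptides and free amino acids. Peptides enter with protons through PepT1 (Slc15a1), and most free amino acids enter across the brush border together with sodium or in exchange for another amino acid. At the basolateral membrane, exchangers and uniporters pass them on to the blood. Several of these carriers are heterodimers, in which a light chain of the Slc7 family transports and a heavy chain (Slc3a1 or Slc3a2) brings it to the membrane. HNF4A is a nuclear receptor of the small intestine that binds regulatory elements of many absorptive genes, and its paralog HNF4G has an overlapping role there.

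Values are log2 expression after robust multi-array averaging (RMA), so a difference of 1 is a 2-fold change, and weak signals are compressed. Levels of different genes were not compared, because each has its own probes. Medians of the 6 arrays lay between 5.53 and 5.58. Background was set at 5.43, the level that 95% of olfactory receptor clusters did not exceed in controls, and all 10 carriers lay above it on every array. All 12 enterocyte markers were also above it, as were 4 of 7 hepatocyte markers in both groups. The Hnf4a signal stood at 10.74, 10.60 and 10.57 in controls 1 to 3 and at 9.49, 9.25 and 9.11 in mutants 1 to 3. That is a difference of -1.35 (SE 0.13), with an adjusted p of 0.111 over all clusters and 0.00743 over clusters with 1 symbol (limma, Benjamini-Hochberg; 0.00467 to 0.548 over 20 alternatives). Hnf4g, the paralog, differed by 0.04 (95% interval -0.22 to 0.30).

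Slc1a1, Slc6a20a and Slc6a19, which are sodium-coupled carriers of the brush border, had lower values in each mutant than in any control, with levels of 50.2%, 53.7% and 70.4% of the controls. The other 7 carriers, the exchangers and PepT1 among them, overlapped between groups. None of the 10 carriers passed an adjusted p under 0.10 in limma, either over all transcript clusters or over those with 1 symbol. These were the 3 carriers with an unadjusted p under 0.05, all lower, where 2.87% of genes were lower at that level. Groups did not overlap, with mutants lower, for the same 3 of 10 and for 6.82% of genes. In all, 8 of the 10 lay below 0 (47.3% of genes), with a median difference of -0.11 against 0.01 over all genes. The comparison as a whole called 0.0121% of all clusters (5 of 41345) and 0.472% of those with 1 symbol (111 of 23521).

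**Figure D1:**
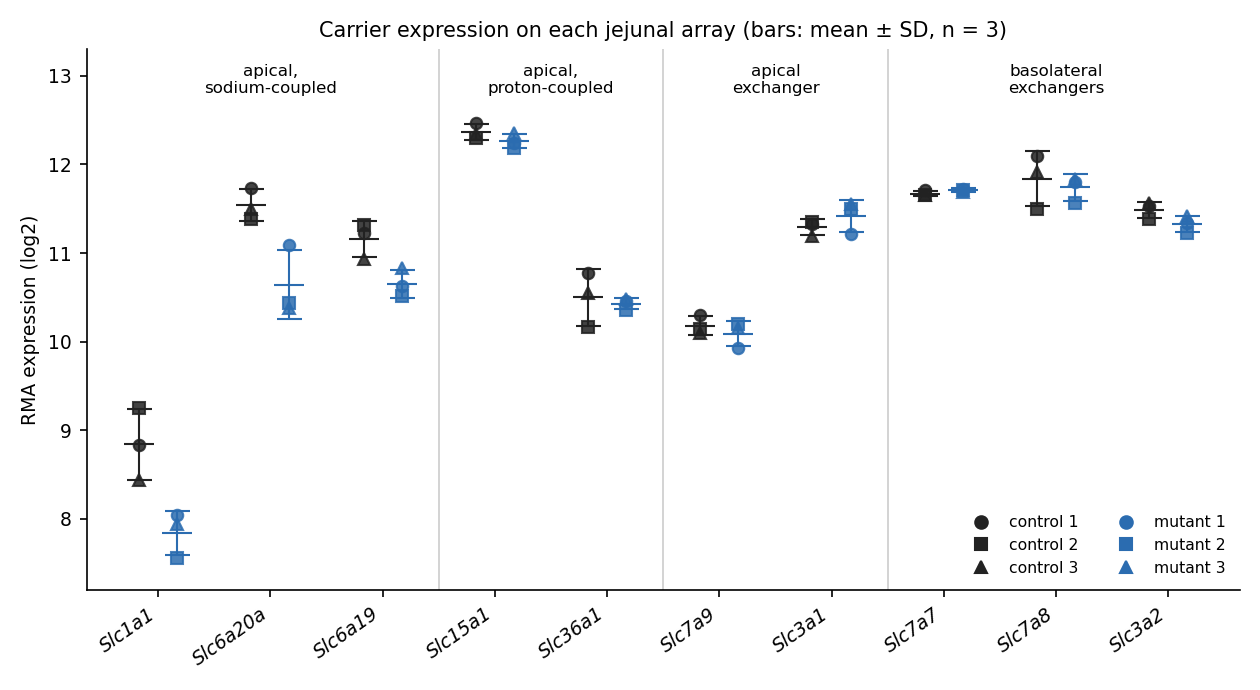
RMA expression (log2) of the 10 carriers on each of the 6 arrays, black for controls and blue for mutants, with symbols for the mice and bars for the mean and SD (n = 3). For Slc1a1, Slc6a20a and Slc6a19 every blue point lies below every black point, and for the other 7 genes the groups overlap. Heights of different genes are not comparable.

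Slc1a1 encodes EAAC1, the sodium-coupled carrier of glutamate and aspartate (chromosome 19, 28835135 to 28913960, GRCm38). It stood at 8.83, 9.25 and 8.44 in controls 1 to 3 and at 8.04, 7.56 and 7.94 in mutants 1 to 3. Control 2 was the highest and mutant 2 the lowest, and the nearest mutant and control were 0.41 apart. The means were 8.84 ± 0.40 and 7.84 ± 0.25 (SD, n = 3), a 1.99-fold lower level (difference -1.0, SE 0.23, 95% interval -1.53 to -0.46). The adjusted p was 0.453 over all clusters and 0.132 over those with 1 symbol (limma).

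Slc6a20a encodes SIT1, which takes up proline and other imino acids with sodium (chromosome 9, 123636907 to 123678832). Controls 1 to 3 were at 11.73, 11.38 and 11.50, and mutants 1 to 3 at 11.09, 10.44 and 10.38. Mutant 1 lay between the controls and the other 2 mutants, 0.29 below the lowest control. The means were 11.54 ± 0.18 and 10.64 ± 0.39 (SD, n = 3), a 1.86-fold lower level (-0.90, SE 0.21, interval -1.39 to -0.40). Limma gave an adjusted p of 0.466 over all clusters and 0.141 over those with 1 symbol. Without mutant 1 the difference was -1.12 and the adjusted p 0.0302 over clusters with 1 symbol, and over the 21 alternatives run for this gene the adjusted p ranged from 0.0302 to 0.854. The neighbouring paralog Slc6a20b, which resembles it in sequence, was near background (5.71 ± 0.15 in controls and 5.51 ± 0.33 in mutants), and the share of signal between the paralogs was not tested.

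Slc6a19 encodes B0AT1, the main sodium-coupled carrier of neutral amino acids (chromosome 13, 73679745 to 73700780). It stood at 11.23, 11.32 and 10.93 in controls 1 to 3 and at 10.63, 10.51 and 10.83 in mutants 1 to 3. Control 3 and mutant 3 came closest, 0.10 apart. From 11.16 ± 0.20 to 10.65 ± 0.16 (SD, n = 3), this was a 1.42-fold lower level (-0.51, SE 0.14, interval -0.84 to -0.17), with an adjusted p of 0.568 over all clusters and 0.265 over those with 1 symbol (limma). Slc6a18, the adjacent relative that serves kidney, was near background and differed by -0.08. Collectrin (Cltrn), which B0AT1 needs in kidney, was below background in both groups (3.75 in controls and 3.78 in mutants).

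The proton-coupled carriers did not separate the groups. Slc15a1, the peptide carrier PepT1 (chromosome 14, 121459621 to 121505254), was at 12.47, 12.30 and 12.34 in controls and 12.24, 12.18 and 12.35 in mutants. Mutant 3 lay within the control range, and the difference of -0.11 had an interval of -0.35 to 0.12 (adjusted p = 0.859, limma). Slc36a1, the carrier PAT1 of small neutral amino acids at the brush border and in lysosomes (chromosome 11), was at 10.78, 10.16 and 10.55 in controls and 10.46, 10.36 and 10.48 in mutants. All 3 mutants lay within the control range, and the difference of -0.06 turned to 0.08 without control 1. Its interval, -0.46 to 0.33, leaves room for levels from 72.9% to 125.5% of the controls.

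The apical exchanger b0,+ takes up cystine and dibasic amino acids and is the heterodimer whose human genes are mutated in cystinuria. Its light chain Slc7a9 (chromosome 7) was at 10.30, 10.14 and 10.10 in controls and 9.93, 10.20 and 10.15 in mutants, a difference of -0.09 (interval -0.36 to 0.18). Its heavy chain Slc3a1 (chromosome 17) was at 11.33, 11.35 and 11.19 in controls and 11.21, 11.50 and 11.55 in mutants. The difference for Slc3a1 was 0.13 (interval -0.17 to 0.42, adjusted p = 0.874, limma), and mutants 2 and 3 were above all controls while mutant 1 was not. The differences of the partners had opposite signs, and both intervals included 0.

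The basolateral carriers also overlapped between groups. Slc7a7, the light chain y+LAT1 that exports dibasic amino acids (chromosome 14, 54369442 to 54420068), varied least, at 11.71, 11.66 and 11.65 in controls and 11.72, 11.71 and 11.69 in mutants. Its difference was 0.04 with an interval of -0.17 to 0.24, or 89.0% to 118.0% of the control level. Slc7a8, the neutral exchanger LAT2 on the same chromosome, was at 12.10, 11.50 and 11.91 in controls and 11.80, 11.56 and 11.84 in mutants. The controls alone spanned 0.60, all mutants lay within them, and the difference of -0.10 turned to 0.03 without control 1. Slc3a2, the heavy chain 4F2hc shared by both (chromosome 19), was at 11.53, 11.38 and 11.56 in controls and 11.34, 11.23 and 11.42 in mutants. Mutant 3 lay within the control range, and the difference was -0.16 (interval -0.40 to 0.08, adjusted p = 0.806, limma). Without Slc1a1, Slc6a20a and Slc6a19, 5 of 7 carriers lay below 0, their differences ran from -0.16 to 0.13, and 0 had an unadjusted p under 0.05. Whether sodium-coupled carriers differed from the others as a class was not tested. Outside the 10 genes, the sodium-dependent taurine carrier Slc6a6 differed by -0.02 and the sodium-dependent neutral carrier Slc1a5 by 0.07, both with overlapping groups. They were picked from 42 other plasma membrane carriers, whose differences ran from -0.60 (Slc1a3, a glutamate carrier) to 0.36, so they do not stand for sodium-coupled carriers at large.

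**Figure D2:**
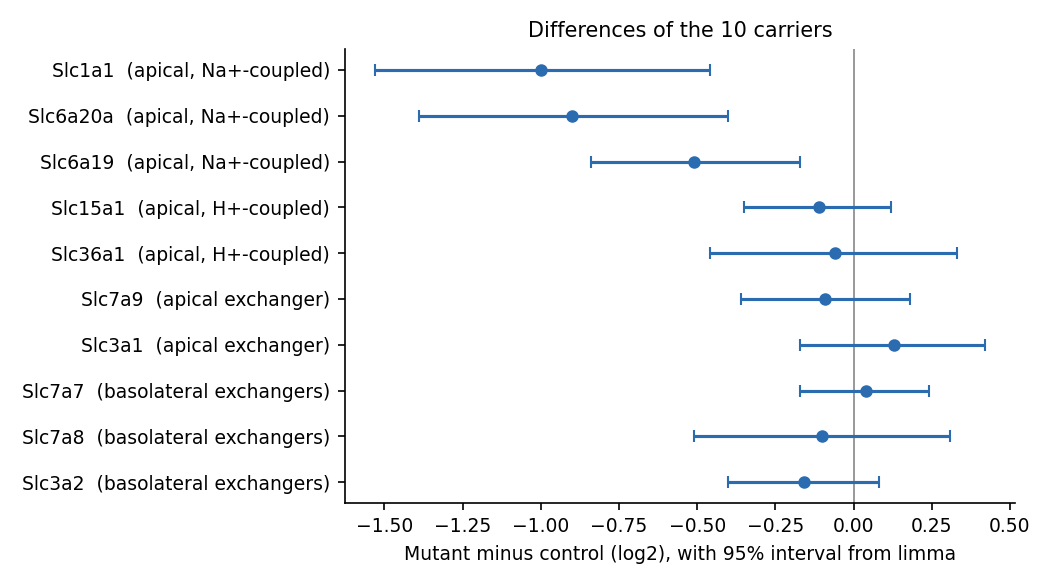
Mutant minus control difference (log2) of each carrier, with its 95% interval from limma over all clusters, ordered by membrane and mode of transport. Intervals of Slc1a1, Slc6a20a and Slc6a19 lie below 0, and those of the other 7 carriers include 0.

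The 250 bases before the annotated starts are shown for the 3 genes with lower values and for Slc3a1, since the first group shared a direction and the last holds a motif of the deleted factor. Sequences come from RefSeq on GRCm38.p6 and read 5′ to 3′ along the gene, and all 10 carriers had at least 1 start in that table (15 starts). Both strands were searched, and capitals mark matches. The letters searched for HNF4 were CAAAGNNCA. For HNF1, another factor of the enterocyte, they were GTTAATNAT. For the intestinal CDX proteins the search used TTTATNG. The letters AGATAA were searched for the zinc finger factors of the gut whose family is written here as GATA. No match overlapped another. The start listed for Slc6a19 lies inside the annotated span of the gene, so its window does too. Bases before the outer end of that span were not searched. Windows of Slc3a2, Slc7a7 and Slc7a9 also lie inside the spans of their genes.
Slc1a1, chr19:28834885-28835134, plus strand: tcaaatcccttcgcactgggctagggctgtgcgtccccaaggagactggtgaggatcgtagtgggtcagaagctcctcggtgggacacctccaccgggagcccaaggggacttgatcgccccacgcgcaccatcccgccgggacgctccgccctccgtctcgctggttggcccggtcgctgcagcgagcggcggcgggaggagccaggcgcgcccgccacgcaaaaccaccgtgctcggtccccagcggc
Slc6a20a, chr9:123678833-123679082, minus strand: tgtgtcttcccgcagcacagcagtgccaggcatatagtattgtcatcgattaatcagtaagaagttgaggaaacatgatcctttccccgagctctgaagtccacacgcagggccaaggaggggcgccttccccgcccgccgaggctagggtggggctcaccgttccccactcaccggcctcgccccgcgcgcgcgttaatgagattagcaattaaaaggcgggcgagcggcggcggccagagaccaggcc
Slc6a19, chr13:73692637-73692886, minus strand: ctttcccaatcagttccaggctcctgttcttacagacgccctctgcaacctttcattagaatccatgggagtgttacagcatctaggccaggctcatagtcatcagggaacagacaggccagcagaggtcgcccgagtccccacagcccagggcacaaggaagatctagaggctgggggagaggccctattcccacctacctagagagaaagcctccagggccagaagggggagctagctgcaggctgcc
Slc3a1, chr17:85028097-85028346, plus strand: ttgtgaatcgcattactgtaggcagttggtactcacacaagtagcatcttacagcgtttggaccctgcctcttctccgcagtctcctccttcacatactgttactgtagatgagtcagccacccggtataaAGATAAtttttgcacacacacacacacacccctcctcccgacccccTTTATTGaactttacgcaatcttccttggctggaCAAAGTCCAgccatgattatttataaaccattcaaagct

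Slc1a1, Slc6a20a and Slc6a19 held 0 matches to these 4 motifs, which says only that the letters are not in these windows. The windows of these genes were rich in G and C, at 70.4%, 61.2% and 57.6%, against a median of 52.4% over all 32851 windows. Those of the other 7 carriers ran from 44.4% (Slc7a9) to 63.2% (Slc7a7), with Slc15a1 at 62.0%. That range covers Slc6a20a and Slc6a19 but not Slc1a1. Slc3a1 held the HNF4 letters as CAAAGTCCA, beginning 39 bases before its start, a CDX match 73 bases before it and a GATA match 119 bases before it. HNF4 letters were also found before a start of Slc7a9, Slc7a7 and Slc7a8. Of all windows, 5.49% held the HNF4 letters, 0.737% the HNF1 letters, 9.81% the CDX letters and 9.99% the GATA letters. The 4 carriers with HNF4 letters were thus among the 7 whose groups overlapped, and binding was not measured.

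Expression profiles were compared by the root mean square difference over the 6 arrays, after centring each gene on its control mean, among genes above background in controls. The profile nearest to Slc6a19 was that of Xpnpep2 (0.086 log2), a membrane aminopeptidase that frees the residue before a proline. Nearest to Slc6a20a were Ptgr1 (0.138), a reductase of leukotrienes and prostaglandins, Hykk (0.141), a hydroxylysine kinase, and Gip (0.151), the incretin hormone gene. Nearest to Slc1a1 were Plb1 (0.165), the brush border phospholipase B, and the lymphocyte genes Gzmb (0.241) and Ccl5 (0.254). Next to Xpnpep2 for Slc6a19 came Fam126a (0.094) and H2-DMa (0.104), an antigen presentation gene. In nearness to Slc1a1, Slc6a20a ranked 26 and Slc6a19 ranked 43 among 13576 genes, while the other 7 carriers ranked from 2055 to 11009. Seen from Slc6a19 the order was another: Slc1a1 ranked 5948 and Slc6a20a ranked 7716, behind Slc3a2 (1674), Slc15a1 (2008), Slc7a9 (3270) and Slc7a8 (5788). In nearness to Slc6a20a, Slc1a1 ranked 81 and Slc6a19 ranked 154. The measure counts the group difference as well as the variation within groups, so genes with a like difference come out near.

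Other genes of amino acid handling were examined by list, and 1 of them was called. Prodh, the mitochondrial proline dehydrogenase, was at 7.32, 7.34 and 7.25 in controls and 6.59, 6.71 and 6.70 in mutants. It fell in limma over clusters with 1 symbol (-0.64, SE 0.09, adjusted p = 0.0484) but missed the threshold when all clusters were tested (adjusted p = 0.238). That call was lost without any 1 of the mutants, control 1 or control 3 (adjusted p 0.119 to 0.209), while the difference stayed between -0.66 and -0.60 without any 1 array. Over all 20 alternatives the adjusted p of Prodh ran from 0.0484 to 0.723.

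Prodh was the 1 member called of 16 enzymes of glutamate, proline and arginine metabolism, 11 of which lay below 0 (median -0.14). Over all genes 47.3% lay below 0, and 0.472% of clusters with 1 symbol were called. Unadjusted p was under 0.05 for 4, all lower, where 2.87% of genes were. Beside Prodh these were the aspartate aminotransferase Got1 (-0.44, SE 0.10, mutants at 9.66, 9.67 and 9.68 against 9.97 to 10.19), the alanine aminotransferase Gpt (-0.30) and Nags (-0.32, the brighter of its 2 clusters), which makes the activator of the urea cycle. Arg2 (-0.18), Oat (0.08) and Cps1 (-0.15), enzymes of arginine and citrulline metabolism, overlapped between groups. Asl, another such enzyme, did not (-0.14), with mutants at 7.08, 7.13 and 7.19 and controls at 7.27, 7.21 and 7.33. Of the 16 enzymes, groups did not overlap for 5 with mutants lower and 0 with mutants higher, beside 6.82% and 7.5% of genes.

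Of 15 lysosomal and mitochondrial amino acid carriers, 7 lay below 0 (47.3% of genes) and 0 were called by limma. At an unadjusted p under 0.05, 2 were lower, where 2.87% of genes were. These were Slc25a13, the aspartate-glutamate carrier citrin, at 7.53, 7.33 and 7.65 in controls and 7.12, 6.72 and 6.58 in mutants (-0.70, SE 0.17), and Slc25a15, the ornithine carrier (-0.30, SE 0.10). Slc25a13 passed over clusters with 1 symbol when mutant 1 was left out (-0.85, adjusted p = 0.0767), with adjusted p from 0.0767 to 0.86 over 20 alternatives. Without control 2, 12 of the 15 lay below 0. Among 11 brush border peptidases, which supply the carriers with substrate, 6 lay below 0 beside 47.3% of genes (median -0.02), and limma called 0. Groups did not overlap for 2 with mutants lower and 2 with mutants higher, beside 6.82% and 7.5% of genes. Xpnpep2 was the 1 with an unadjusted p under 0.05 (-0.43, SE 0.12), where 2.87% of genes were lower. It stood at 10.29, 10.37 and 10.17 in controls and 9.76, 9.75 and 10.04 in mutants.

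Of 42 other plasma membrane amino acid carriers, 16 lay below 0, beside 47.3% of genes, and the median difference was 0.05. Both means were at or below background for 12 of the 42. Of all 42, limma called 0, beside 0.472% of clusters with 1 symbol. At an unadjusted p under 0.05, 3 were lower and 2 higher, where 2.87% and 3.66% of genes were. Groups did not overlap for 3 with mutants lower and 4 with mutants higher, beside 6.82% and 7.5% of genes. The lower ones were Slc7a1, the cationic carrier CAT1 (-0.25), Slc1a3, a glutamate carrier of glia and other cells (-0.60, mutants below background), and Slc38a4, a carrier typical of liver (-0.53, both means below background). Slc38a4 stood at 5.54, 4.81 and 5.54 in controls and passed over clusters with 1 symbol without control 2 (-0.77, adjusted p = 0.0356, 0.0356 to 0.923 over 19 alternatives). Slc1a6 (0.32, with a control mean of 5.44 beside the background of 5.43) and Slc7a13 (0.26, below background) were higher. The basolateral aromatic carrier Slc16a10 (0.09, interval -0.20 to 0.37) and the neutral uniporter Slc43a2 (-0.15, interval -0.39 to 0.09), which act beside Slc7a8, overlapped between groups.

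Of 4 measured genes of partners and ion gradients, 0 were called by limma, beside 0.0121% of all clusters and 0.472% of those with 1 symbol. Slc9a3r1 encodes the scaffold NHERF1 of the brush border and differed by -0.21 (SE 0.09). It was lower in each mutant (11.46, 11.39 and 11.50) than in each control (11.66, 11.65 and 11.67), as were 6.82% of genes. It was also the 1 with an unadjusted p under 0.05, where 2.87% of genes were lower. Slc9a3, the sodium-proton exchanger that sustains proton-coupled uptake, differed by 0.07, and Atp1b1, a subunit of the sodium pump, by -0.13. Genes that respond to amino acid shortage through ATF4 lay below 0 in 10 of 11 cases (median -0.29), beside 47.3% of genes. Their mean relative to controls was -0.16, 0.12 and 0.04 in controls and -0.17, -0.32 and -0.35 in mutants, so control 1 and mutant 1 lay side by side. Limma called 0, and 3 had an unadjusted p under 0.05, all lower (2.87% of genes): Asns, the asparagine synthetase (-0.47), the folate enzyme Mthfd2 (-0.44) and Atf5 (-0.29). Groups overlapped for Asns, which was at 8.02 in control 1 and 8.14 in mutant 1.

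**Figure D3:**
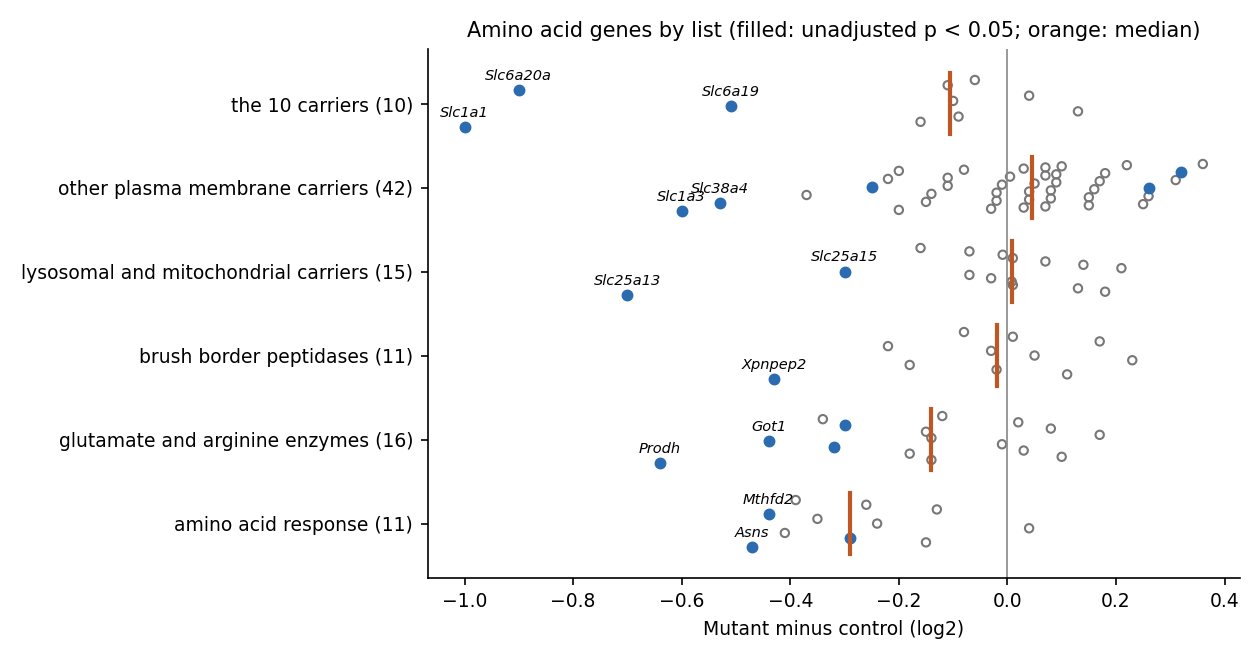
Mutant minus control difference (log2) of each gene, by list, with the number measured in brackets. Filled points have an unadjusted p under 0.05 and orange lines are medians, from -0.29 for the amino acid response to 0.05 for other plasma membrane carriers. Vertical scatter within a list carries no value.

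Markers of the cells in whole jejunum were set beside the carriers. The mean of 12 enterocyte markers, relative to the control mean, was 0.07, -0.04 and -0.03 in controls 1 to 3 and -0.02, -0.03 and 0.05 in mutants 1 to 3, and the groups overlapped. That of 9 pan-epithelial markers lay between -0.08 and 0.09 on the 6 arrays. Distal genes of the small intestine (4) stood at -0.15, 0.36 and -0.21 in controls and 0.07, -0.33 and 0.75 in mutants, overlapping as well. Among them 2 lay below 0, and differences ran from -0.58 for Fabp6 to 1.11 for Fgf15. Fgf15 was higher in each mutant than in any control. The 6 proximal genes stood between -0.01 and 0.01 in controls and at -0.10, -0.11 and -0.26 in mutants. They went both ways, from -1.15 for Ada, an adenosine deaminase, to 0.63 for Slc40a1, the iron exporter, and 4 of 6 lay below 0. The part of enterocyte number and of sampling position in the carrier values was not tested.

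The mean of each of 5 further marker lists did not overlap between groups. For single genes, 6.82% did not overlap with mutants lower and 7.5% with mutants higher. Over clusters with 1 symbol, limma called 4 T and NK lymphocyte and 3 hepatocyte markers, all lower, and 1 tuft cell marker, higher. It called 0 goblet cell and 0 endothelial markers, beside 0.472% of clusters, and 0 markers of these lists over all clusters. T and NK lymphocyte markers (8 of 9 below 0) were at 0.03, -0.11 and 0.08 in controls and at -0.46, -0.71 and -0.59 in mutants. Goblet cell markers (7 of 7 above 0) were between -0.12 and 0.11 in controls and between 0.28 and 0.35 in mutants. Tuft cell markers (5 of 5 above 0) lay between -0.03 and 0.03 in controls and between 0.23 and 0.34 in mutants. Endothelial markers (5 of 5 above 0) lay between -0.03 and 0.04 in controls and between 0.08 and 0.13 in mutants. Hepatocyte markers (7 of 7 below 0) stood at 0.40, -0.88 and 0.48 in controls and at -1.44, -1.82 and -2.22 in mutants, and Alb ranged from 8.80 to 10.38 in controls and from 6.44 to 7.73 in mutants. Control 2, with the lowest hepatocyte mean of the controls, had the highest Slc1a1 and Slc6a19 values of all 6 arrays and the lowest Slc6a20a value of the controls (11.38). It also had the highest smooth muscle mean (0.43, against -0.17 and -0.26 in the other controls). Without control 2 the differences were -0.79 for Slc1a1, -0.98 for Slc6a20a and -0.42 for Slc6a19. Among lists whose means overlapped or met between groups, some also had all genes in 1 direction. All 6 genes lay above 0 for fibroblast, enteroendocrine and macrophage and dendritic markers. All 6 smooth muscle markers lay below 0, beside 47.3% of genes. The part of these cell types in the carrier values was not tested.

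**Figure D4:**
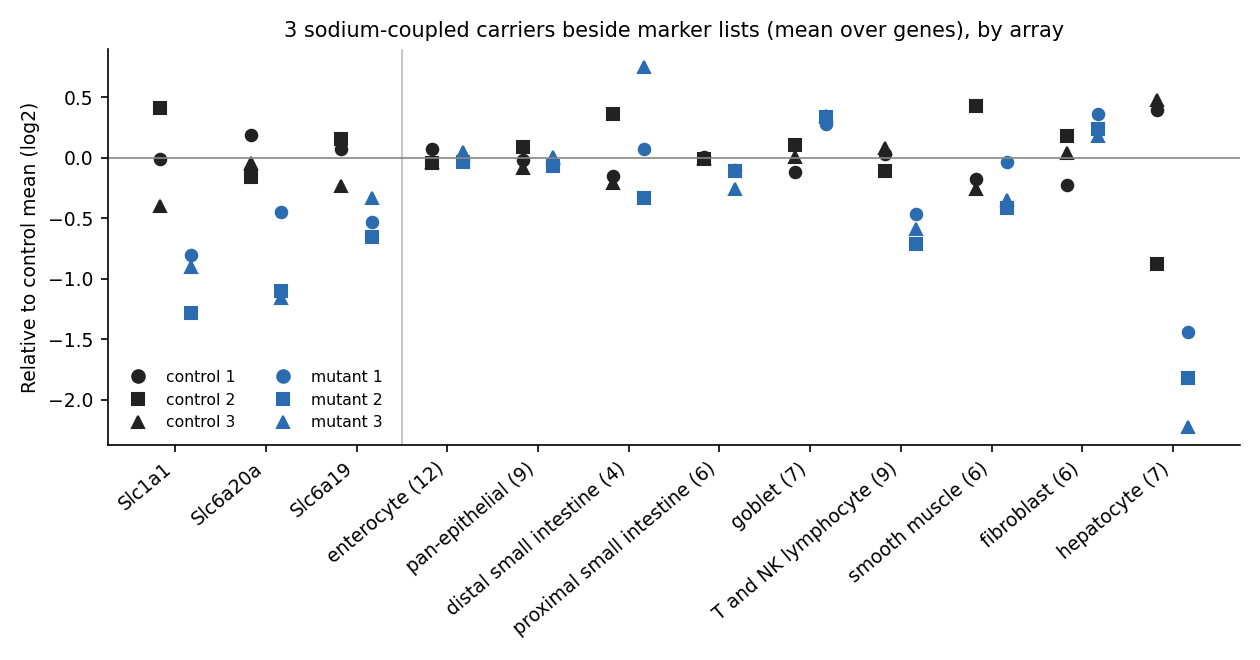
Values of Slc1a1, Slc6a20a and Slc6a19, and means of marker lists with their number of genes in brackets, on each array relative to the control mean (log2). Black symbols are controls and blue symbols mutants. Enterocyte and pan-epithelial means stay within 0.09 of 0, whereas hepatocyte and lymphocyte means are lower in all 3 mutants.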

How the data were processed

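Total RNA of whole jejunum from 3 mutant and 3 control mice was labelled with biotin and hybridised to Affymetrix arrays, 1 per mouse. Per the labels and methods, the authors summarised probes by RMA to log2 expression in the Transcriptome Analysis Console (version not given in the sources used here). RMA gives all arrays 1 distribution, so differences in total RNA are lost. All 41345 transcript clusters had a value on each array, and no arrays were identical. The methods name a different mouse array from the one whose identifiers the table holds, Mouse Gene 2.0 ST. Symbols came from the platform annotation, updated to RefSeq GRCm38, and the brightest cluster stood for a gene. Arrays were few, which limits precision.

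Mutants and controls were compared with limma 3.58.1 in R 4.3.3 (lmFit and eBayes, two-sided). P-values over all clusters were adjusted by Benjamini-Hochberg, and 0.10 was the limit for a call, after the methods. The fit over 23521 clusters with 1 symbol stood beside it. The scripts were tested on simulated data. An exact permutation test of 3 against 3 cannot go below 0.10 and was not used.

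The carriers and lists were chosen with earlier results of these data known. Named were the carriers, Hnf4a, Hnf4g, partners, list members with an unadjusted p under 0.05, and the 3 nearest profiles of each carrier with such a p. Outside that rule, Arg2, Oat, Cps1, Asl, Atp1b1, Slc16a10, Slc43a2, Slc6a6, Slc1a5, Slc6a18 and Slc6a20b were named for their roles after their values were seen. So were the marker genes Ada, Slc40a1, Fabp6, Fgf15 and Alb. Alternatives were the set of clusters, a filter on dim clusters, 2 normalizations, 3 variance models, a stricter threshold, a minimum difference, a replicate block and leaving out each array. Leaving out arrays within the 1-symbol fit, and alternatives for list genes, were chosen after seeing the data. Motifs were searched in RefSeq promoter windows, and no genome was used.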

Additional observations from a re-analysis of the deposited data

How the results depend on the processing

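Slc1a1, Slc6a20a and Slc6a19 stayed below 0 under all 21 alternatives run for each. Every mutant lay below every control for these genes, so leaving out an array could not change the sign. Several other settings changed only the variance or the set of clusters and kept the same difference. The same 3 genes had an unadjusted p under 0.05 in all 20 other fits. Limma called 0 carriers except over clusters with 1 symbol without mutant 1, which called 1 (Slc6a20a, adjusted p = 0.0302). Without single arrays Slc36a1 ran from -0.24 to 0.08 and Slc7a8 from -0.27 to 0.03, the higher values without control 1 in both fits, so the number of carriers below 0 ran from 6 to 8 without single arrays. The count of called clusters, 5 in the fit over all, was 111 over clusters with 1 symbol, 38 without dim clusters, 17 with an intensity trend and a robust prior together, and 0 with unmoderated statistics (2803 at an unadjusted p under 0.05) or at an adjusted p under 0.05. Without single arrays it ran from 0 to 16 over all clusters (0 without control 1 or any 1 mutant, 2249 to 2649 at an unadjusted p under 0.05 in limma) and from 10 to 108 over clusters with 1 symbol (15 and 35 without controls 1 and 3, 63, 10 and 34 without mutants 1 to 3). The labels do not say whether arrays with the same replicate number belong together. Deviations of same-numbered arrays correlated at -0.108, -0.006 and -0.051 over clusters, and all pairs lay between -0.108 and 0.111. With so few arrays this cannot settle whether mice were paired. With the replicate block limma called 0 clusters (2585 at an unadjusted p under 0.05) and 0 carriers (3 at an unadjusted p under 0.05), and it changed no other call of a carrier. Every carrier had 1 cluster, so averaging clusters gave the same values. Of the pathway genes named for an unadjusted p under 0.05 and Hnf4a (17 genes), 0 changed sign. For all of them but Asns the groups did not overlap, so leaving out an array could not change the sign.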
